A study of Mus musculus with 15 samples.

Results

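The genes described here are 34 genes of glycolysis and of the response to low oxygen, taken by gene symbol from a list of names and not by their values, out of 53465 genes in the table. Of the 34 genes, 24 encode glucose and lactate carriers, glycolytic enzymes and their regulators, and 10 encode oxygen sensing factors and genes induced by hypoxia. All 34 passed the filter on low values, a mean normalized count of 5 or more across the 15 libraries. They were measured by RNA sequencing in 15 libraries, 5 from each of 3 populations sorted out of tumors of B16-F0, a transplantable mouse melanoma line. The tumors had grown for 15 days in mice aged 8 to 14 weeks, of both sexes, that carried a CAG-GFP transgene, whose ubiquitous promoter gives GFP to the cells of the host and not to the injected tumor cells. Every population was GFP positive, lineage depleted and CD34 positive. EVP (endovascular progenitors) had low CD31 and low VEGFR2, TA (transit amplifying cells) had intermediate CD31 and low VEGFR2, and D (differentiated endothelial cells) had high CD31 and high VEGFR2, so that no gene described here was used in the sort. GFP marks every cell of the host and not endothelial cells alone. The labels do not say whether the 5 libraries of a population came from separate animals, and p-values therefore measure only the spread between these samples.

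Glycolysis splits glucose into pyruvate in the cytoplasm. Glucose enters through facilitative transporters, is phosphorylated by hexokinases and is committed to the pathway by phosphofructokinase, and most steps are served by several isozymes encoded by separate genes. When pyruvate is reduced to lactate rather than burned in mitochondria, monocarboxylate transporters carry the lactate out, and endothelial cells are known to draw much of their energy in this way. When oxygen falls, prolyl hydroxylases no longer mark the alpha subunits of hypoxia inducible factors (HIF) for destruction, and these subunits bind short DNA elements near many glycolytic and hypoxia genes.

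The letters of these elements were searched in the 250 bases before the annotated start of each gene, in RefSeq promoters of GRCm38.p6, which held 31 of the 34 genes. The letters were ACGTG and GCGTG on either strand, and CACGTG, which holds ACGTG on both strands, counted as 2 matches. A match was found for 20 of 23 glycolysis genes and for 8 of 8 hypoxia genes at one or more of their starts, and in 12678 of all 32841 promoters (38.6%). Counted by start, which is how the share of all promoters is counted, 28 of 36 promoters of glycolysis genes held a match (77.8%). The promoters of all genes were not matched to these in base composition or expression, and the difference in shares was not tested. Eno2, Gpi1 and Tpi1 had no match in this window, which says only that these letters were not there. The promoters of 4 genes that recur below are shown in lower case with the matches in capitals, 5′ to 3′ on the strand of the gene. Slc16a1 (chr3:104638414-104638663, plus strand) and Hk2 (chr6:82774455-82774704, minus strand) belong to genes that were higher in EVP than in D, with 4 and 2 matches. Bnip3 (chr7:138909507-138909756, minus strand, 5 matches) and Ankrd37 (chr8:45999851-46000100, minus strand, 4 matches) belong to hypoxia genes that differed in opposite directions between the same populations.
Slc16a1: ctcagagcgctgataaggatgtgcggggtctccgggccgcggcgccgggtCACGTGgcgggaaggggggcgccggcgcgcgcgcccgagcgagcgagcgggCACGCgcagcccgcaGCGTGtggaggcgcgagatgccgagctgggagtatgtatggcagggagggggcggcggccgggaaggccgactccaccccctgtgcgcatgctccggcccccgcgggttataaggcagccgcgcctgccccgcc
Hk2: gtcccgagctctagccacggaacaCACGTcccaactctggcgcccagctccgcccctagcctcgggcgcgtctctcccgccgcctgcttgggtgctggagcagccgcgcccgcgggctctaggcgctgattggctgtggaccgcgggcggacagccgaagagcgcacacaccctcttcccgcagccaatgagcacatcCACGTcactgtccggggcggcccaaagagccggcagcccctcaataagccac
Bnip3: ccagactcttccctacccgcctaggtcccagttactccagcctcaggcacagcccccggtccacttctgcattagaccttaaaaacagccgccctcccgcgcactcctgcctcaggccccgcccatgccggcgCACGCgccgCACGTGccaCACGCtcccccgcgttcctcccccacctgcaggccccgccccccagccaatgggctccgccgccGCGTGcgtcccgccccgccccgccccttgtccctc
Ankrd37: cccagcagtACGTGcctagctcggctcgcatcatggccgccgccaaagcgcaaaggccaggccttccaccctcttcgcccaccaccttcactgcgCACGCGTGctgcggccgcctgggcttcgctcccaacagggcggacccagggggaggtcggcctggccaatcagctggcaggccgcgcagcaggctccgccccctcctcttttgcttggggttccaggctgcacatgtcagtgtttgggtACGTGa

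**Figure D1:**
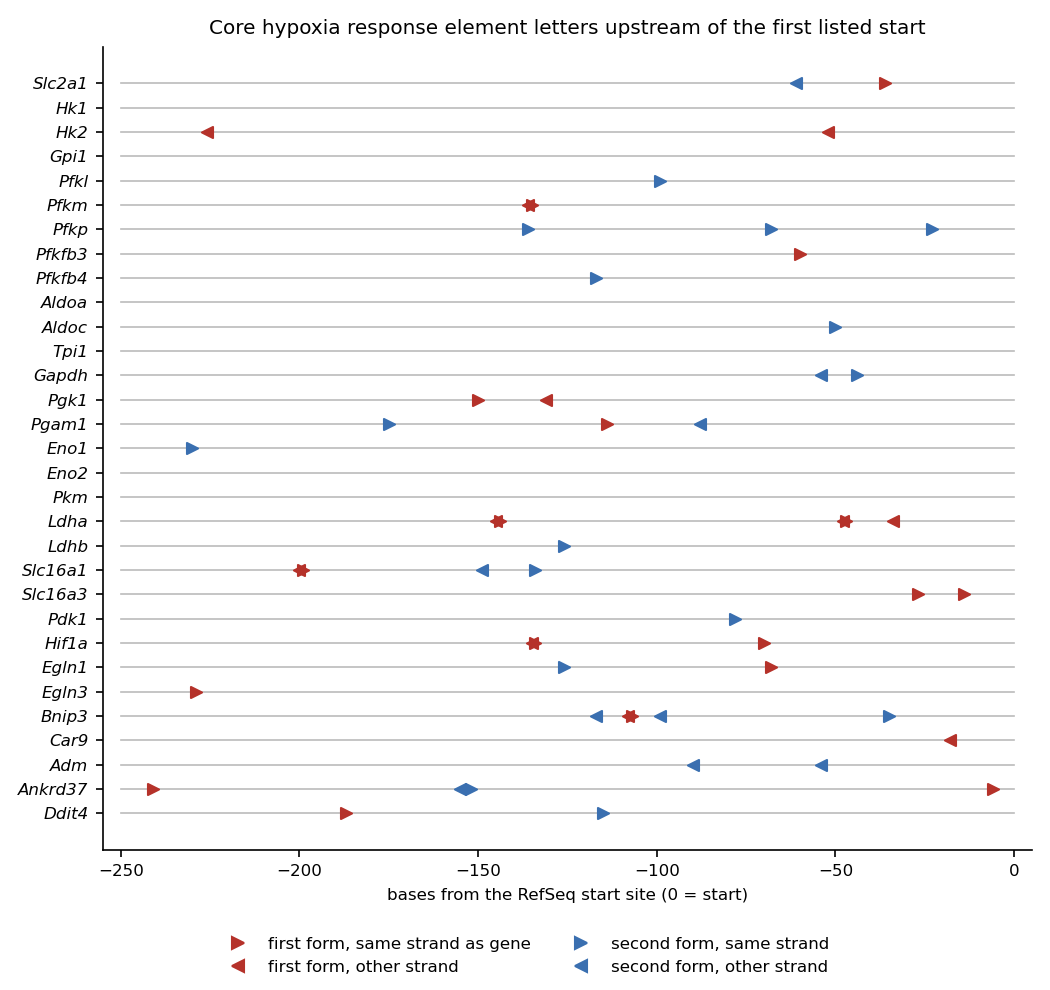
Positions of the letters ACGTG (red) and GCGTG (blue) in the 250 bases before the first listed RefSeq start of 31 genes, with the distance from the start in bases on the x axis, 1 gene a row, and the arrow giving the strand. The matches lie over the whole window, and Bnip3 has 5 of them.

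The libraries held 5394356 to 26513073 reads on genes, and glycolysis genes took 0.571 to 1.267% of them and hypoxia genes 0.094 to 0.202%. Summed levels of the glycolysis genes ran from 103454 to 188377 normalized counts (read counts divided by 1 size factor per library) in EVP, from 135362 to 185828 in TA and from 114500 to 158058 in D, so the populations overlapped in the total. Replicate 1 of each population carried a background of reads spread over the genome. The predicted gene Gm10800 took 8.495 to 10.604% of the reads of these 3 libraries, and the mean over olfactory receptor genes was 39.9 normalized counts per kb of exon in EVP replicate 1, 9.06 in TA replicate 1 and 6.57 in D replicate 1, against 0.064 to 3.748 in the other libraries. The populations also differed in markers of other cells. Summed fibroblast markers were 863257 to 1551217 in EVP, 196598 to 619562 in TA and 1145 to 4261 in D, and summed pan-endothelial markers were 3464 to 6540 in EVP, 9188 to 85304 in TA and 120648 to 197115 in D. Pecam1, which encodes CD31 and served in the sort, had 260.1 ± 203.6 normalized counts in EVP cells and 24244 ± 5170 in D (mean ± SD, n = 5, as below), and the endothelial cadherin Cdh5 had 72.3 ± 67.9 and 9818, so the endothelial markers were low in EVP. Melanoma markers summed to 29776 to 67410 in EVP, 69334 to 176152 in TA and 18213 to 47920 in D, leukocyte markers to 3082 to 15051, 14125 to 62408 and 9489 to 19790, and mural markers to 5287 to 29146, 5503 to 146624 and 5067 to 10789. Erythroid markers summed to 19 to 12117 in EVP, 4 to 15273 in TA and 70 to 8494 in D, and cell cycle genes to 9575 to 22739, 21876 to 32736 and 21530 to 32278. Genes known to rise during tissue dissociation summed to 73438 to 239247 in EVP and 48579 to 115116 in TA, each library above the 40534 to 45457 of D. No marker of any list was at 0 in all libraries. The part of these differences in the results that follow was not tested, and in such bulk samples fewer cells of a type and less RNA per cell cannot be told apart.

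Populations were compared with limma on log2(normalized count + 1) across all 25549 genes that passed the filter, all 15 libraries sharing 1 estimate of the spread, and a gene was called at a Benjamini-Hochberg adjusted p under 0.05. Differences are given on this log2 scale with the standard error, and folds are ratios of the mean normalized counts. The additive 1 understates the change of the lowest genes. Since logs are averaged, libraries near 0 can also make a log2 difference larger than its fold, as for Pfkfb4 and Eno2 between EVP and D.

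**Figure D2:**
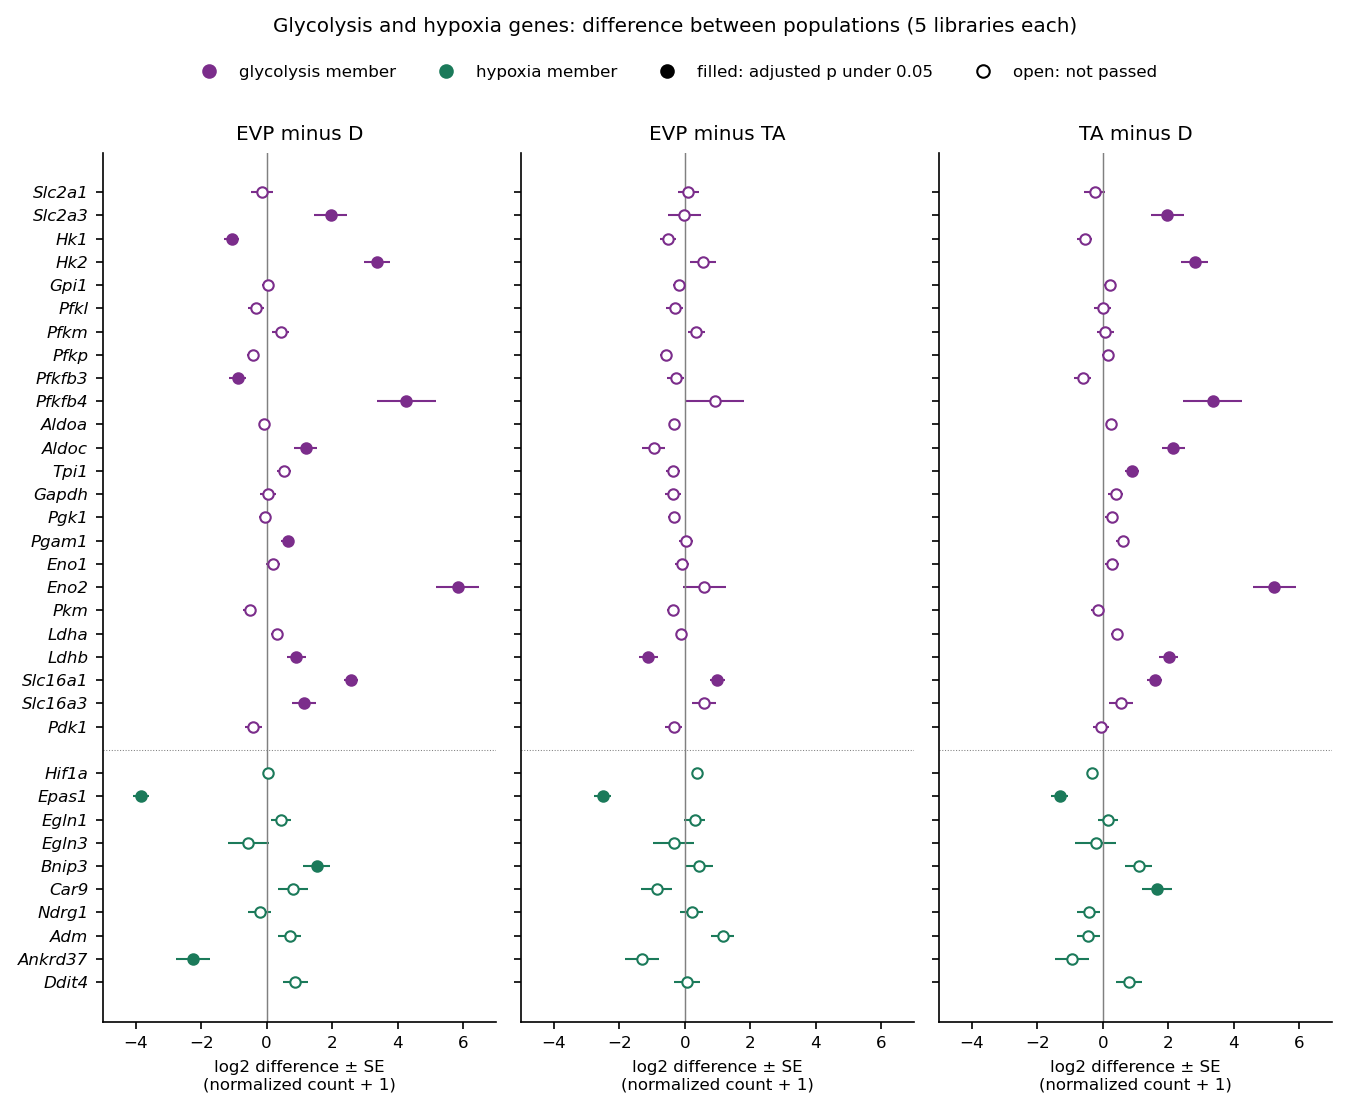
Log2 difference of each of the 34 genes, with its standard error as a bar, in EVP against D, EVP against TA and TA against D, with glycolysis genes in purple and hypoxia genes in green and filled points for genes with an adjusted p under 0.05. Eno2 (5.84), Pfkfb4 (4.27) and Hk2 (3.37) stand furthest toward EVP against D, and Epas1 (-3.84) furthest toward D.

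EVP and D differed in isozymes and carriers of glycolysis, and the abundant enzymes Aldoa, Gapdh, Pkm and Ldha were not called. Hexokinase 2, enolase 2, the regulatory enzyme Pfkfb4 and the lactate carrier Slc16a1 were higher in EVP, by 5.82 to 39.8 times in the means, and hexokinase 1, Pfkfb3, the HIF subunit Epas1 and Ankrd37 were higher in D, by 1.78 to 13.8 times. Of the 34 genes 14 were called (41.2%), beside 19.0% of all genes tested. Of the 34, 10 were called higher in EVP, beside 11.6% of all genes, and 4 higher in D, beside 7.46%. Over all genes, 2952 of the 4859 calls were higher in EVP. When every library was scaled to an equal total instead, 6 of the 34 genes were called higher in EVP and 6 in D. In 9 of the 34 genes, all of them called, the libraries of the populations did not overlap, beside 17.7% of all genes. Calls were more frequent among well expressed genes in general, at 31.1% of the 11302 genes with a mean of 100 or more. Of these 11302 genes, 1862 were called higher in EVP and 1655 in D, and 3372 had no overlap between the populations. The median log2 difference was 0.25 over the 34 genes, 0.46 over all genes tested and 0.003 over those with a mean of 100 or more. Glycolysis genes gave 11 of the calls, 9 higher in EVP and 2 in D, and hypoxia genes gave 3 calls, 1 higher in EVP and 2 in D. Without EVP replicate 1 the number of calls was 9.

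At the entry of glucose, the Glut1 gene Slc2a1, which encodes the common carrier of endothelium, had 873 normalized counts per kb over all libraries and the high-affinity carrier Slc2a3 (Glut3) had 66.9. Slc2a1 had values of 3357, 1621, 3789, 1836 and 4841 in EVP replicates 1 to 5 and of 3752, 2546, 4168, 2923 and 2603 in D, a log2 difference of -0.15 (adjusted p = 0.833). Slc2a3 had values of 298, 223, 1426, 417 and 1115 in EVP, 274, 299.8, 847, 676 and 965 in TA and 192, 204, 126, 72.1 and 135 in D. Every EVP and TA library lay above every D library for Slc2a3, although EVP replicates 1 and 2 and D replicates 1 and 2 lay close together. Its log2 difference was 1.96 ± 0.51 between EVP and D (adjusted p = 0.00993, 4.77 times). In EVP replicate 1 the value of Slc2a3, 298.4, stood beside a background of 289.3 expected from exon length, and after subtraction of such a background from every library the adjusted p was 0.623 for EVP against D and 0.367 for TA against D.

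Hexokinases hold glucose in the cell by phosphorylation. Hk2 (ENSMUSG00000000628, chr6:82725025-82774454, minus strand), the isozyme known to be inducible by hypoxia and growth factors, had 2086, 624, 2149, 1083 and 1406 normalized counts in EVP cells and 113, 72.7, 385, 95.4 and 116 in D. No libraries overlapped, and D replicate 3 stood apart from the other D libraries. The log2 difference was 3.37 ± 0.40 (adjusted p = 7.45e-06, 9.41 times). Hk1, the housekeeping isozyme, ran the other way, with 1232, 1005, 1140.4, 1641 and 1924 in EVP and 3077, 2254, 2590.4, 3614 and 2815 in D. All D libraries exceeded all EVP libraries for Hk1, at a log2 difference of -1.07 ± 0.24 (adjusted p = 0.00389, 2.07 times higher in D).

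Gpi1, which makes fructose 6-phosphate, had 5324 ± 1520.3 normalized counts in EVP cells and 5024 ± 818 in D (log2 difference 0.05, adjusted p = 0.886). Phosphofructokinase subunits differed little. Pfkl had 4755 ± 1557 in EVP and 5797 ± 1134 in D (adjusted p = 0.492), and Pfkm had 389.7 ± 59.6 and 289.8 ± 44.9. Pfkp, the platelet form, had 3426 ± 730.5 in EVP and 4559.9 ± 739 in D (log2 difference -0.42, adjusted p = 0.097), and it was called without D replicate 2 (adjusted p = 0.0343).

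The bifunctional enzymes Pfkfb3 and Pfkfb4 set the level of fructose 2,6-bisphosphate, the strongest activator of phosphofructokinase, and Pfkfb3 is the form known from the vessel sprouts of growing endothelium. Pfkfb3 had 548, 494, 777, 529.9 and 1186 normalized counts in EVP cells and 938, 1161, 1790.0, 1205 and 1197 in D. EVP replicate 5 lay among the D libraries, and the log2 difference was -0.88 ± 0.26 (adjusted p = 0.0209, 1.78 times higher in D). This call did not hold without EVP replicate 1, 2 or 4 or without D replicate 3 (adjusted p 0.053 to 0.0648). Pfkfb4 was the other way round, with 214, 342, 416, 489.9 and 341 in EVP and 45.3, 95.5, 0.0, 10.5 and 36.9 in D. No libraries overlapped for Pfkfb4, at a log2 difference of 4.27 ± 0.90 (adjusted p = 0.00209, 9.58 times), and with the background subtracted the adjusted p was 0.0799. The value of Pfkfb4 in EVP replicate 1, 214.2, stood beside an expected background of 194.6, and that of Pfkfb3, 547.7, beside 301.9.

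Aldolases cleave the 6-carbon sugar. Aldoa was the highest of the 34 genes per length, at 9868 normalized counts per kb over all libraries, and had 26512 ± 6345 normalized counts in EVP cells and 27291 ± 3213 in D (log2 difference -0.07, adjusted p = 0.829). Aldoc, the form first known from brain, had 277, 157, 216, 189 and 214 in EVP and 96.1, 133, 100.1, 54.1 and 82.2 in D. The libraries of Aldoc did not overlap, with a log2 difference of 1.20 ± 0.35 (adjusted p = 0.0228, 2.26 times), and the call did not hold without EVP replicate 1 or D replicate 4 or 5 (adjusted p 0.0508 to 0.0697). Tpi1, which interconverts the 2 triose phosphates, had 8802, 5160.2, 8570.1, 6097 and 12022 in EVP and 6579, 3898, 6339, 6017 and 4713 in D. These libraries overlapped (log2 difference 0.53, adjusted p = 0.098), and Tpi1 was called only when EVP replicate 2 was left out of the single libraries (adjusted p = 0.0278).

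Among the enzymes that follow, Gapdh, which oxidizes the triose phosphate, had 7133 ± 2383 normalized counts in EVP cells and 6831 ± 1964 in D (adjusted p = 0.932), and the ATP-forming kinase Pgk1 had 2631 ± 696 and 2645 ± 298 (adjusted p = 0.909). Pgam1, the phosphoglycerate mutase, had 1706, 1112, 1694, 1093 and 2011 in EVP and 1013, 802, 1118, 931 and 864 in D. EVP replicates 2 and 4 lay within the D range, and the log2 difference was 0.65 ± 0.20 (adjusted p = 0.0265, 1.61 times). The Pgam1 call did not hold without EVP replicate 1, 3 or 5 or D replicate 2, 4 or 5 (adjusted p 0.0524 to 0.0788). Reads of these genes may match near-identical copies as well, since 48.83% of the 76-base stretches of Gapdh, 63.39% of those of Pgk1, 44.11% of those of Eno1 and 38.9% of those of Pgam1 occur in other annotated genes. How the counting treated such reads was not tested, and levels per kb of these genes carry this limit, as do shares of pairs with Eno1.

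Enolases form phosphoenolpyruvate. Eno1, the form of most tissues, had 15805 ± 5171 normalized counts in EVP cells and 13450.5 ± 2505 in D (log2 difference 0.19, adjusted p = 0.686). Eno2 (ENSMUSG00000004267, chr6:124760053-124769673, minus strand), known as the neuronal enolase, had 133, 232, 173, 239.8 and 292 in EVP and 1.4, 0.8, 0.0, 18 and 6.6 in D. No libraries of EVP and D overlapped for Eno2, at a log2 difference of 5.84 ± 0.66 (adjusted p = 3.56e-06, 39.8 times), and per kb it was the lowest of the 34 genes, at 25.8 against 2820.1 for Eno1. In EVP replicate 1 the value of Eno2, 133.4, lay under the expected background of 187.9, and with the background subtracted the adjusted p was 0.0405. Pkm, the pyruvate kinase, had 26554 ± 8336 in EVP and 36504 ± 2999 in D (log2 difference -0.52, adjusted p = 0.0723), and it was called without EVP replicate 3 or 5 (adjusted p 0.0317 and 0.0332).

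At the fate of pyruvate, the lactate dehydrogenase subunit Ldha had 25401 ± 6120.2 normalized counts in EVP cells and 20159 ± 3149.7 in D (adjusted p = 0.247). Ldhb (chr6:142490249-142507957, minus strand), the heart subunit, had 1145, 729, 1119, 1042 and 1089.7 in EVP and 446, 395, 1045, 391 and 628 in D. D replicate 3 lay among the EVP libraries for Ldhb and EVP replicate 2 below the rest, and the log2 difference was 0.91 ± 0.29 (adjusted p = 0.0358, 1.76 times). The call did not hold without EVP replicate 1, 3, 4 or 5 or D replicate 1, 2 or 4 (adjusted p 0.0679 to 0.0991). The kinase Pdk1, which limits the use of pyruvate in mitochondria by inhibiting pyruvate dehydrogenase, had 1643 ± 482 in EVP and 2141 ± 556 in D (adjusted p = 0.347).

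Slc16a1 (Mct1, ENSMUSG00000032902, chr3:104638668-104658462, plus strand), a carrier of lactate in either direction, had 2001, 2665, 2163, 1789 and 1529 normalized counts in EVP, 1231, 992, 1035, 802 and 984 in TA and 564, 297, 306, 239 and 338 in D. The 3 populations formed separate ranges, highest in EVP and lowest in D. The log2 difference between EVP and D was 2.57 ± 0.22 (adjusted p = 1.94e-07, 5.82 times). Slc16a3 (Mct4), the low-affinity exporter of highly glycolytic cells, had 4989, 1481, 3119, 1396 and 3984 in EVP and 1711, 969.8, 1239.7, 1278 and 921 in D. EVP replicates 2 and 4 lay within the D range for Slc16a3, with a log2 difference of 1.14 ± 0.36 (adjusted p = 0.0342, 2.45 times), and the call did not hold without EVP replicate 1, 3 or 5 or D replicate 2, 3, 4 or 5 (adjusted p 0.0575 to 0.105).

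**Figure D3:**
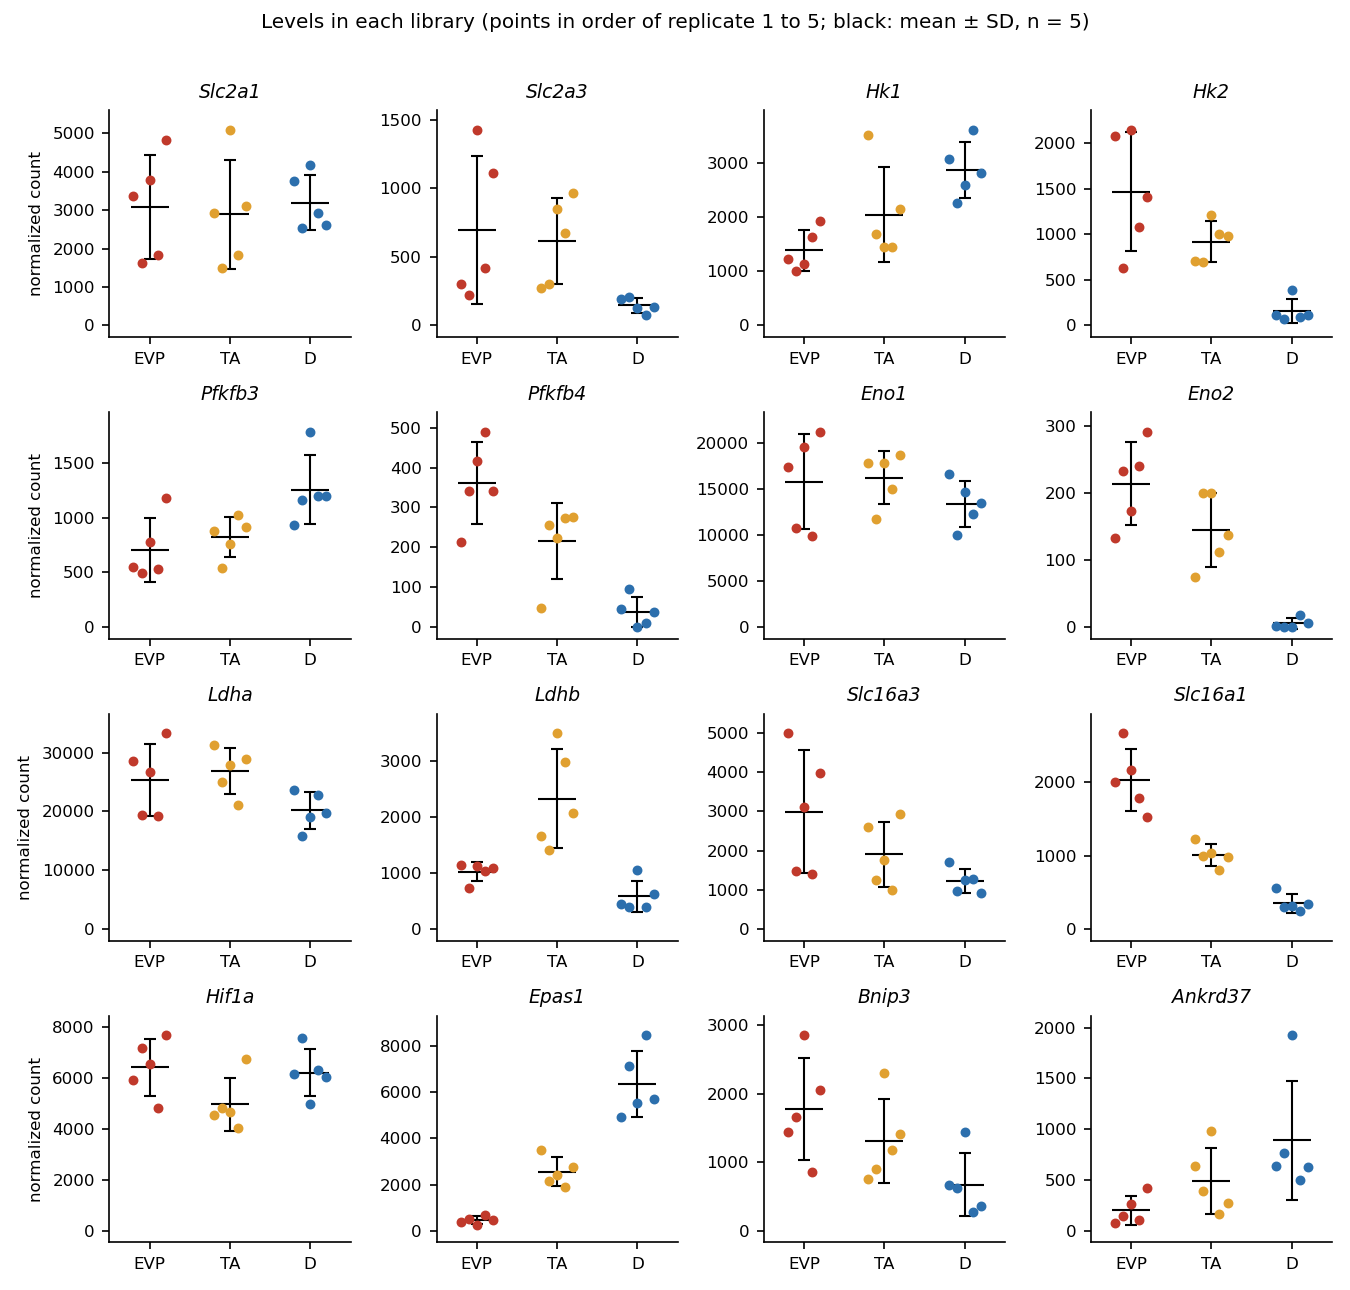
Normalized counts of 16 of the genes in each library of EVP, TA and D, 1 panel a gene, with points for replicates 1 to 5 and bars for the mean ± SD (n = 5). Slc16a1 falls from 2029 ± 428 in EVP to 1009 ± 153 in TA and 349 ± 126 in D without overlap, and Epas1 rises in the same order.

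Of the oxygen sensing genes, the alpha subunits of HIF differed from each other. Epas1 (ENSMUSG00000024140, chr17:86753907-86833410, plus strand), which encodes HIF-2α and is known for its expression in endothelium, had 372, 498, 253, 695 and 485 normalized counts in EVP, 3513, 2145, 2429.8, 1897 and 2757 in TA and 4926, 7163, 5548, 8478 and 5700.3 in D. The 3 populations did not overlap. The log2 difference between EVP and D was -3.84 ± 0.25 (adjusted p = 5.25e-09, 13.8 times higher in D), and the summed pan-endothelial markers stood in the same order of populations. Within TA, replicate 1 was highest in both, with a marker sum of 85304. TA replicate 5 had the lowest sum, 9188, and its Epas1 value of 2757 lay above TA replicates 2, 3 and 4. The part of endothelial content in these values was not tested. For EVP replicate 1 the expected background of Epas1 was 223.2 beside a value of 372.2. Hif1a, which encodes HIF-1α, had 5919.7, 7188, 6572, 4815 and 7691 in EVP and 6156, 7593, 4992, 6326 and 6043 in D, a log2 difference of 0.04 (adjusted p = 0.897). The prolyl hydroxylases that mark both subunits were not called. Egln1 had 451 ± 156 in EVP and 334 ± 138 in D (adjusted p = 0.411), and Egln3, itself induced by hypoxia, had 278 ± 197 and 418 ± 379 (log2 difference -0.56, adjusted p = 0.67).

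Of the 6 hypoxia-induced genes 2 were called, in opposite directions. Ankrd37 (ENSMUSG00000050914, chr8:45996902-46005707, minus strand), an ankyrin repeat protein gene known as a HIF-1 target, had 73.7, 148, 260.1, 104 and 416 normalized counts in EVP cells and 637, 764, 1924, 494 and 631 in D. The D libraries all exceeded the EVP libraries in Ankrd37 (log2 difference -2.24 ± 0.52, adjusted p = 0.00425, 4.45 times higher in D). Its exons are shared over 26.38% of their length with Lrp2bp and Ufsp2, and its value of 73.7 in EVP replicate 1 stood beside an expected background of 61.4. Bnip3 (ENSMUSG00000078566, chr7:138890836-138909519, minus strand), which promotes the removal of mitochondria, had 1439.5, 1658, 2857, 861 and 2058 in EVP and 671, 626, 1443, 274 and 360.2 in D. D replicate 3 lay among the EVP libraries for Bnip3 (log2 difference 1.53 ± 0.41, adjusted p = 0.0131, 2.63 times higher in EVP), and 40.23% of its 76-base stretches occur in other annotated genes.

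The remaining hypoxia-induced genes were not called between EVP and D. Car9, a carbonic anhydrase of the cell surface, averaged 279 ± 145 in EVP and 160.4 ± 71.8 in D (adjusted p = 0.301). Ndrg1 had 2323 ± 1129.9 and 2574 ± 1032 (adjusted p = 0.78), and Ddit4, an inhibitor of mTORC1 signaling, had 476 ± 192 and 267 ± 131 (adjusted p = 0.15). Adm, which encodes the vasodilator peptide adrenomedullin, varied between EVP libraries, with 7033, 21862, 9690.1, 20338 and 6598. EVP replicates 2 and 4 were far above the rest for Adm, and the summed dissociation genes were 131834 and 239247 in these libraries against 73438 to 109463 in the other EVP libraries. In TA replicates 2 and 4 these sums were 109866 and 115116 against 48579 to 54284 in the other TA libraries. Adm was 6784 and 4922 there, within the 2473 to 6886 of the other TA libraries. The part of dissociation in the Adm values was not tested. D had 7404, 6564, 11114, 5889.7 and 5301 for Adm, a log2 difference of 0.71 (adjusted p = 0.205).

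TA exceeded D in hexokinase 2, enolase 2, the aldolase Aldoc, the lactate dehydrogenase subunit Ldhb and the carriers Slc2a3 and Slc16a1, by 2.89 to 27.0 times in the means. Between TA and D 10 of the 34 genes were called, beside 12.5% of all genes. Of the 34, 9 were called higher in TA, beside 8.21% of all genes. Over all genes, 2098 of the 3199 calls were higher in TA. The single gene higher in D was Epas1, beside 4.31% of all genes. In these 10 calls and in Pgam1, libraries did not overlap except for Pfkfb4, so that 10 of the 34 genes had no overlap, beside 9.25% of all genes. Glycolysis genes gave 8 of the calls, all higher in TA, and hypoxia genes gave 2, Car9 and Epas1. Among genes with a mean of at least 100, 21.5% were called. The median log2 difference was 0.26 over the 34 genes and 0.24 over all genes tested. EVP against D and TA against D share the D libraries.

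Hk2 had 710.1, 691, 1218, 999.8 and 983 normalized counts in TA, all above D, at a log2 difference of 2.80 ± 0.40 (adjusted p = 0.000154, 5.89 times). Eno2 had 74.1, 199.5, 201, 113 and 138 in TA, at 5.24 ± 0.66 (adjusted p = 3.39e-05, 27.0 times), and with the background subtracted its adjusted p was 0.0408. All TA libraries thus exceeded all D libraries for these isozymes. Slc2a3 differed by 1.97 ± 0.51 (adjusted p = 0.0151, 4.2 times) and Slc16a1 by 1.58 ± 0.22 (adjusted p = 0.000123, 2.89 times). Pfkfb4 had 48.3, 257, 224, 273 and 275 in TA, and replicate 1, far below the other TA libraries, lay within the D range. Its log2 difference was 3.35 ± 0.90 (adjusted p = 0.0194, 5.73 times), which did not hold without D replicate 4 (adjusted p = 0.0519) or with the background subtracted (0.272).

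Aldoc had 162, 446, 473, 725 and 408 normalized counts in TA, higher than in EVP and D in all but replicate 1, and exceeded D by 2.15 ± 0.35 on the log2 scale (adjusted p = 0.000527, 4.76 times). Ldhb had 1663, 1414, 3493, 2979 and 2079 in TA and exceeded D by 2.02 ± 0.29 (adjusted p = 0.000145, 4.0 times). TA thus held the highest mean of each of these isozymes, and TA replicate 3, with the highest Ldhb value of all libraries, also had the highest summed melanoma markers, 176152, as D replicate 3 did among D libraries with 47920. In EVP the highest melanoma sum, 67410, was in replicate 5, where Ldhb, at 1089.7, was below replicates 1 and 3. TA replicate 4 had a lower melanoma sum than TA replicate 5 (108782 and 112444) and more Ldhb. The part of melanoma RNA in these values was not tested. Tpi1 had 9874, 8867, 12270.5, 8579 and 10705 in TA, above every D library, at 0.88 ± 0.21 (adjusted p = 0.00844, 1.83 times). Pgam1 had 1537, 1141, 1491, 1262 and 1843 in TA, also above every D library, at 0.61 with an adjusted p of 0.0529, and it was called without EVP replicate 2, 4 or 5 or TA replicate 2 (adjusted p 0.0373 to 0.048).

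Hk1 had 3519.6, 1683, 1439, 1449.5 and 2143 normalized counts in TA, where replicate 1 exceeded most D libraries. Its log2 difference between TA and D was -0.56 (adjusted p = 0.17), and without TA replicate 1 it was called (-0.78, adjusted p = 0.0198). Epas1 was 2.5 times higher in D than in TA (log2 difference -1.32 ± 0.25, adjusted p = 0.00144). Car9 had 514, 327, 500.0, 542 and 363 in TA and 238, 177, 173, 173 and 41.7 in D, without overlap, at a log2 difference of 1.65 ± 0.46 (adjusted p = 0.0238, 2.80 times). This call did not hold without TA replicate 4 or D replicate 5 (adjusted p 0.053 and 0.0572). Bnip3 had 762, 899, 2306, 1182 and 1414 in TA, and its difference from D, 1.09 (adjusted p = 0.103), was called only without D replicate 3 among the single libraries (1.43, adjusted p = 0.0218).

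EVP and TA differed in few of the genes. Slc16a1 was higher in EVP, Ldhb and Epas1 were higher in TA, and the remaining 31 genes were not called. These 3 calls stood beside 3.50% of all genes tested, split into 1.56% toward EVP and 1.94% toward TA. The libraries of the populations did not overlap in 3 genes, beside 4.29% of all genes. At an unadjusted p under 0.05 there were 9 genes, and without EVP replicate 2 or without EVP replicate 3 there was 1 call each. Among genes with a mean of at least 100, 7.4% were called, and the median log2 difference was -0.14 over the 34 genes and 0.085 over all genes.

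Epas1 was 5.53 times higher in TA than in EVP, at a log2 difference of -2.51 ± 0.25 (adjusted p = 9.93e-05). Slc16a1 was 2.01 times higher in EVP (1.00 ± 0.22, adjusted p = 0.0188), which did not hold without EVP replicate 2 or 3 (adjusted p 0.0682 and 0.0543). Ldhb was 2.27 times higher in TA (log2 difference -1.12 ± 0.29, adjusted p = 0.0423). The Ldhb call did not hold when any EVP library, TA replicate 3, 4 or 5 or D replicate 5 was left out (adjusted p 0.0514 to 0.127). Aldoc was called without TA replicate 1 (-1.27, adjusted p = 0.0352) and Adm without EVP replicate 5 (1.36, adjusted p = 0.0439), and neither with all libraries (adjusted p = 0.181 and 0.084). Adm had 6886, 6784, 6245, 4922 and 2473 normalized counts in TA. Of the remaining genes, Ankrd37 had 636, 388, 979, 169 and 272 in TA, between EVP and D in its mean and overlapping both (adjusted p = 0.214 against EVP), and Hif1a had 4564, 4840.2, 4669.8, 4049 and 6758 (adjusted p = 0.27).

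The glycolysis genes not yet given in TA had the following means. Slc2a1 had 2890.3 ± 1411 normalized counts, Gpi1 5856 ± 652, Pfkl 5926 ± 1880.4, Pfkm 319 ± 102, Pfkp 5017 ± 591, Aldoa 32376 ± 3048, Gapdh 8821 ± 1667 and Pgk1 3235 ± 629. Eno1 had 16252 ± 2894, Pkm 33014 ± 6084, Ldha 26845 ± 3898 and Pdk1 2059 ± 561. Of the hypoxia genes not yet given in TA, Egln1 had 370.0 ± 147, Egln3 350.3 ± 247, Ndrg1 1930.3 ± 863 and Ddit4 466 ± 212. Pfkfb3 with 824 ± 185 and Slc16a3 with 1906 ± 836 lay between EVP and D in their means.

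The shift from one isozyme to another was measured within each library as the log2 ratio of 2 genes, with 1 added to each normalized count. Apart from this 1 the ratio does not depend on the scaling of the library. The 1 weighs on values near 0, as in Eno2 and Pfkfb4 in D. For 11 pairs in 3 comparisons, the difference of mean log2 ratios was tested by an exact two-sided permutation test over the 252 divisions of 5 libraries against 5, whose smallest p is 0.00794, and p was adjusted over the 33 tests. Of these 17 passed, 7 between EVP and D, 2 between EVP and TA and 8 between TA and D, and in 12 of them the libraries did not overlap. Since the pairs were formed from genes tested above, the ratios restate those differences largely free of scaling and are no separate evidence.

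Hk2 made up 58.07 ± 12.67% of Hk1 and Hk2 together per kb of exon in EVP (47.05 to 72.93%), 40.67 ± 12.53% in TA (22.38 to 54.75%) and 7.22 ± 5.8% in D (3.64 to 17.51%). The EVP libraries thus lay on both sides of an equal share. Hk1 exceeded Hk2 per kb in every TA library but replicate 3, and D expressed mostly Hk1. The log2 ratio differed by 4.44 between EVP and D and by 3.35 between TA and D (exact permutation p = 0.00794 and adjusted p = 0.0218 for each). Pfkfb4 made up 44.93 ± 11.1% of the pair with Pfkfb3 in EVP, 28.54 ± 12.66% in TA and 4.84 ± 4.54% in D. The log2 ratio of this pair differed by 5.15 between EVP and D (exact permutation, adjusted p = 0.0218) and by 3.96 between TA and D (adjusted p = 0.0308, exact), and the latter did not hold without any of TA replicates 2 to 5 (adjusted p 0.0728 to 0.0786) or with the background subtracted (0.123).

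Epas1 made up 7.28 ± 3.51% of Epas1 and Hif1a per kb in EVP (3.9 to 13.22%), 35.05 ± 5.79% in TA (30.08 to 44.81%) and 51.61 ± 4.85% in D (45.77 to 58.57%). The 3 ranges did not overlap, and all 3 comparisons passed (log2 differences -3.88 between EVP and D, -2.88 between EVP and TA and -0.99 between TA and D, exact permutation, adjusted p = 0.0218 for each). Ldhb made up 8.01 ± 1.42% of Ldha and Ldhb in EVP, 15.54 ± 5.95% in TA and 5.81 ± 2.78% in D, so that Ldha prevailed in every population. The Ldhb to Ldha ratio was higher in TA than in D by 1.61 and than in EVP by a difference coded as -1.01 for EVP against TA (exact permutation, adjusted p = 0.0308 for each), and the latter did not hold without EVP replicate 1, 2, 3 or 5 (adjusted p 0.0689 to 0.077). Between EVP and D this ratio passed only without D replicate 3 (0.85, exact permutation, adjusted p = 0.0262).

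Slc16a3 made up 52.29 ± 16.51% of both lactate carriers per kb in EVP, 59.11 ± 8.66% in TA and 74.58 ± 4.85% in D, so the share of the exporter was highest in D although its level was highest in EVP. The log2 ratio of Slc16a3 to Slc16a1 differed by -1.43 between EVP and D (exact permutation, adjusted p = 0.0218), which did not hold without any 1 of the D libraries (adjusted p 0.0616 to 0.0873), and by -1.02 between TA and D (exact permutation, adjusted p = 0.0308). Slc2a3, Aldoc and Eno2 were minor partners everywhere, at 9.14 ± 4.3%, 0.72% and 1.7 ± 0.82% of their pairs with Slc2a1, Aldoa and Eno1 in EVP and 2.25 ± 1.01%, 0.31% and 0.05 ± 0.07% in D. Their log2 ratios were higher by 2.11, 1.27 and 5.65 in EVP than in D and by 2.22, 1.90 and 4.96 in TA than in D (exact permutation, adjusted p = 0.0218, and 0.0308 for Aldoc between TA and D). With the background subtracted, Slc2a3 to Slc2a1 and Eno2 to Eno1 no longer passed between EVP and D (differences 1.22 and 4.67, exact permutation, adjusted p = 0.504 and 0.123). The pairs Pfkm with Pfkl, Pfkp with Pfkl and Egln3 with Egln1 passed in no comparison with all libraries, and Pfkm with Pfkl passed between EVP and D without EVP replicate 3 (0.91, exact permutation, adjusted p = 0.0462).

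**Figure D4:**
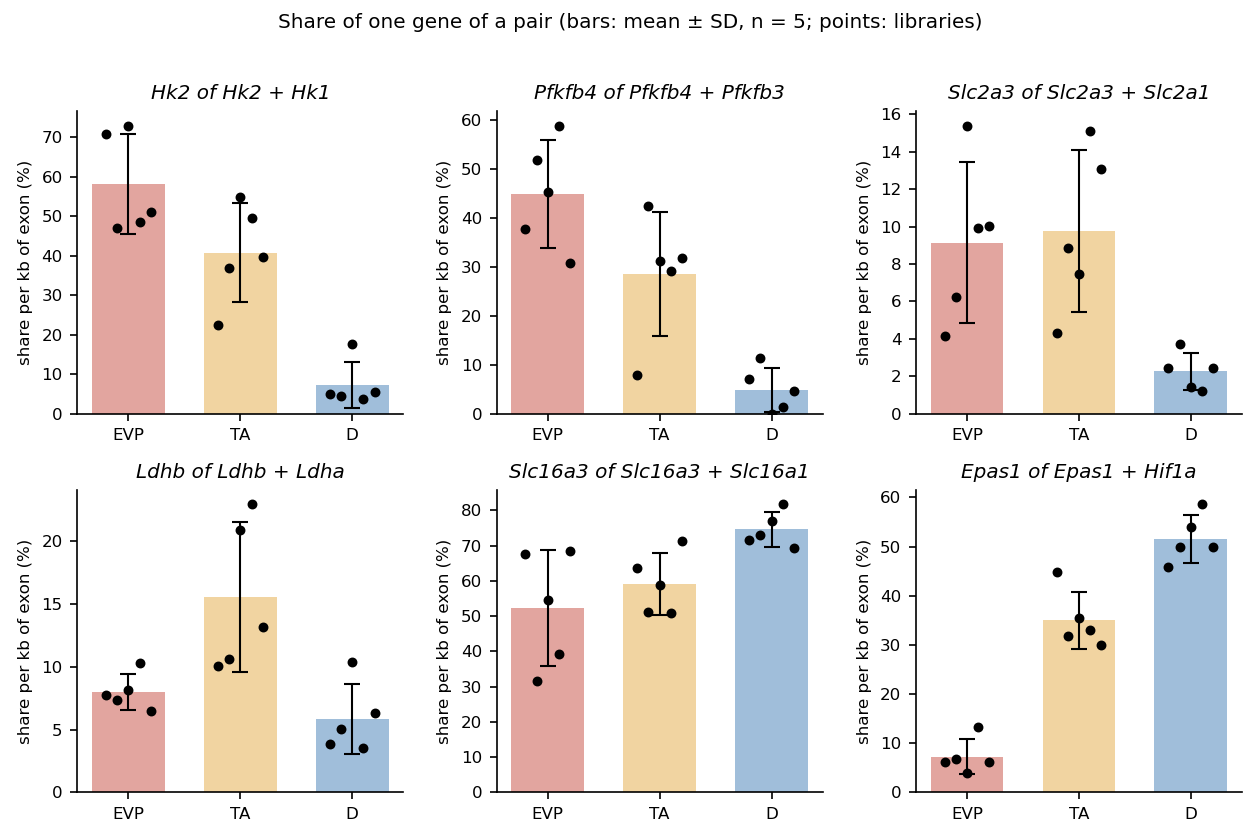
Share of the first gene in the sum of a pair, in percent of normalized counts per kb of exon, for 6 pairs in EVP, TA and D, with bars for the mean, lines for the SD (n = 5) and points for the libraries. The share of Hk2 is 58.07% in EVP and 7.22% in D, and the share of Epas1 is 7.28% in EVP and 51.61% in D.

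Libraries of 1 population differed in the hypoxia genes. The library highest most often was replicate 3 in TA and D and replicate 5 in EVP. Replicate 5 led in 5 of the 10 hypoxia genes in EVP, where replicate 3 led in 3, and replicate 3 led in 5 of the 10 in TA. Of all 25549 genes tested, EVP replicate 5 led in 2974, EVP replicate 3 in 2921 and TA replicate 3 in 5854. Of the 11302 with a mean of at least 100 these libraries led in 2283, 2009 and 2360. In D, replicate 3 had the highest value in 7 of the 10 hypoxia genes, with 1079 normalized counts of Egln3 where the others had 239, 395, 212 and 166, 1443 of Bnip3 and 1924 of Ankrd37. D replicate 3 led in 4568 of the 25549 genes tested and in 2622 of the 11302 with a mean of at least 100. Bnip3 and Egln1 were highest in replicate 3 of all 3 populations, as were Hk2 and Pdk1 among the glycolysis genes, beside 1.12% of all genes tested and 1.73% of those with a mean of at least 100. No other replicate number was highest in all 3 populations for any of the 34 genes. Pdk1 had 2170.3, 2704 and 3009 in replicate 3 of EVP, TA and D, and Egln1 had 714, 613 and 569.8. Among glycolysis genes EVP replicate 5 was the highest EVP library in 14 of 24, beside its 2974 of 25549 and 2283 of 11302 genes. The labels do not say what replicates with the same number share. Without replicate 3 of each population, an alternative added after the data were seen, 9 genes were called between EVP and D and 1 between EVP and TA.

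**Figure D5:**
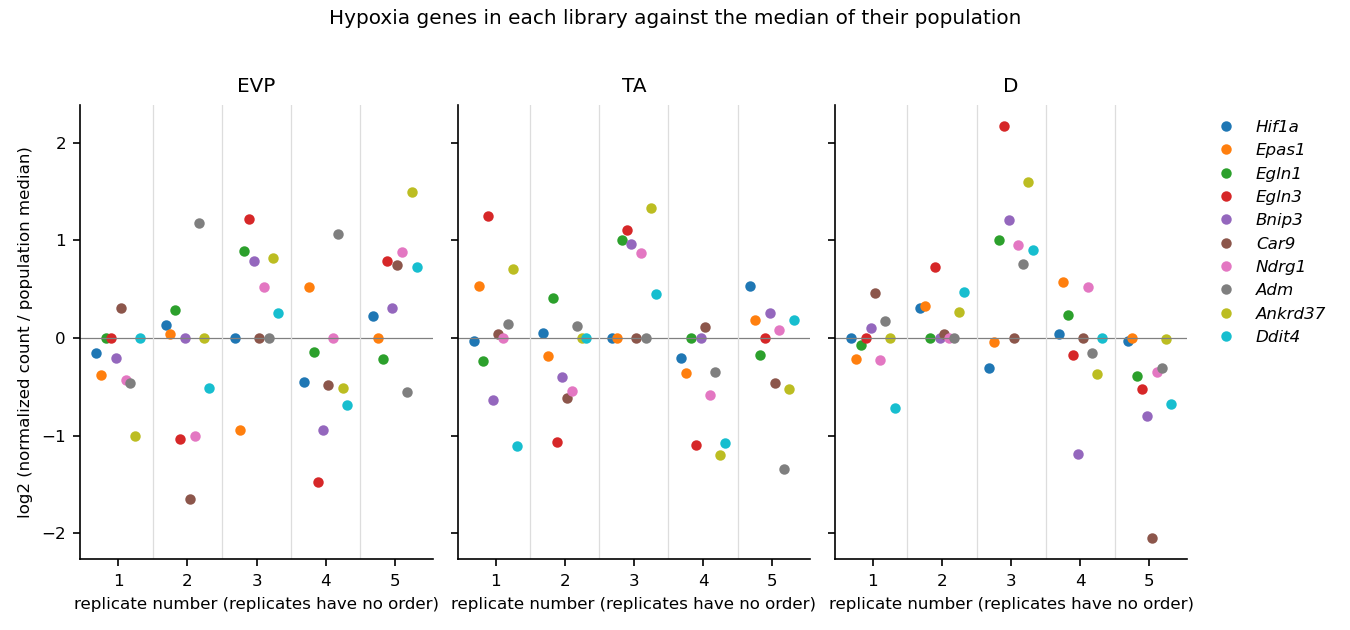
Log2 of the normalized count over the median of its population for the 10 hypoxia genes, by replicate number, with 1 panel a population and points for genes. In D the points of replicate 3 lie highest for 7 of the 10 genes.

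Further genes of both pathways were read from longer lists. Among 38 further glycolysis genes tested, 7 were called between EVP and D (18.4%, beside 19.0% of all genes), 6 of them higher in EVP. These included the monocarboxylate carrier Slc16a7 (log2 difference 4.45), the glucose carrier Slc2a12 (3.79) and Galm (1.62), which converts the anomers of hexoses, and the gene higher in D was the urate and sugar carrier Slc2a9 (-3.02). Between TA and D 6 of the 38 were called (15.8%, beside 12.5% of all genes), 5 higher in TA, and the gene higher in D was Pdk4 (-1.96). Between EVP and TA 0 of 38 were called by limma, with 4 at an unadjusted p under 0.05.

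Among 41 further hypoxia genes tested, 19 were called between EVP and D (46.3%, beside 19.0% of all genes and 31.1% of those with a mean of 100 or more), 17 of them higher in EVP. The collagen and elastin cross-linking enzyme Lox averaged 37580 in EVP against 48.7 in D (log2 difference 10.74), its relative Loxl2 had 3167 and 47.4 (6.09), and the carbonic anhydrase Car12 differed by 6.57. Such matrix genes stood beside the fibroblast marker sums given above, which were at least 863257 in every EVP library and at most 4261 in D. Of the 2 genes higher in D, Stc1, which encodes stanniocalcin, had 479 in EVP and 8170 in D (-4.15), and Plod1, a collagen lysyl hydroxylase, differed by -0.93. Between TA and D 16 of the 41 were called (39.0%, beside 12.5% of all genes and 21.5% of those with a mean of 100 or more), 14 higher in TA. Between EVP and TA 6 were called (14.6%, beside 3.50% and 7.4%), 4 higher in EVP (Loxl2 by 1.40 and Plod2 by 1.19 among them) and 2 in TA (Stc1 by -2.17 and the transferrin receptor Tfrc by -1.0). Gapdhs and Hif3a were too low to be tested.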

How the data were processed

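RNA from 15 libraries, 5 each of EVP, TA and D, was amplified by a modified Smart-Seq2 protocol and sequenced by the authors in paired reads of 76 bases. The authors aligned the reads with STAR 2.5.3a to GRCm38 (Ensembl 91), obtained counts per gene from HTSeq-count 0.6.1 and divided these by DESeq2 1.10.1 size factors, and these deposited values are signal values (normalized counts). Smart-Seq2 carries no molecular identifiers, so depth gives counting error only. The authors' tables of their own comparisons (mean, log2 fold change, its standard error, a Wald statistic and p-values) were not used.

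The table held 53465 genes, 6716 of them at 0 throughout. Division of a library's values by its smallest positive value gave whole numbers for 100% of values (tolerance 0.001), so reads were recovered. The unit being counts divided by size factors, limma 3.58.1 in R 4.3.3 was applied to log2(normalized count + 1) for 25549 genes with a mean of at least 5, two-sided, with Benjamini-Hochberg adjustment over these genes, in place of the count model of the study. edgeR 4.0.16 and DESeq2 1.42.0 on the recovered reads were alternatives. Of 25549 genes, EVP against D gave 4859 calls in limma, 3849 in edgeR and 5547 in DESeq2, EVP against TA gave 893, 663 and 1900, and TA against D gave 3199, 2570 and 4202. Methods were checked on simulated data.

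The 34 genes, the further lists, the marker lists and the tests were chosen with earlier results of these data known. All 34 genes are named, and every called gene is given by library. Of the further genes, up to 3 per direction with the largest log2 difference are named, except 1 gene not reported here. A second gene with the symbol Aldoa, with a mean of 8.7, was left out. The background was the mean over 1092 olfactory receptor genes per kb of exon. Exon lengths came from the GRCm38 annotation, and promoters from RefSeq.

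Libraries with the same replicate number were compared by the correlation of their deviations from the population means, which was between -0.136 and 0.689. Replicates 1, 2, 4 and 5 correlated best with their own number in every comparison, and replicate 3 in none. Summed erythroid markers fell at each step from replicate 1 to 5 in every population. They ran from 12117 to 19 in EVP, 15273 to 4 in TA and 8494 to 70 in D. Since the correlation was not above 0.1 in every pair, the populations were compared without pairing. The main tests thus leave out any origin that libraries of the same number share, and such an origin was not tested. Alternatives were the pseudocount, the filter, scaling, library weights, fits of 2 populations, the replicate block, a minimum fold, background subtraction and libraries left out. A term for the 2 blocks of columns in the table and the fit without replicate 3 were added after the data were seen.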

Additional observations from a re-analysis of the deposited data

Results flagged for a closer look

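Of the 102 sets of 5 libraries that the 34 genes form, 5 held a library whose gap to its nearest neighbour, on the log2 scale, took more than 0.71 of the range. Chance gives about 1 in 20 such sets (5%). Hk2 had 384.6 normalized counts in D replicate 3, where the other D libraries had 72.7 to 116.0. Pfkp had 3301.4 in D replicate 2 against 4552.5 to 5148.8 in the others. Pfkfb4 had 48.3 in TA replicate 1 against 224.3 to 275.2, in a library with a background of 9.06 per kb of exon. Ldhb had 729.0 in EVP replicate 2 against 1042.2 to 1144.6, and Car9 had 41.7 in D replicate 5 against 172.7 to 237.5. The cause of these values was not tested.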

How the results depend on the processing

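Under 32 alternatives no called gene changed direction, and 6 of the 14 genes called between EVP and D (Hk1, Hk2, Eno2, Slc16a1, Epas1 and Ankrd37) and 6 of the 10 between TA and D (Hk2, Aldoc, Eno2, Ldhb, Slc16a1 and Epas1) were called in every one, against 0 of the 3 between EVP and TA. The 14 calls between EVP and D became 9 with the background subtracted, without replicate 1 of each population (also without TA replicate 3) and, added after the data were seen, without replicate 3 of each population. Leaving out 1 library gave 9 to 14. The 3 calls between EVP and TA became 5 with array weights, 5 with the replicate block, 6 in DESeq2, 1 without replicate 3 of each population and 0 without replicate 1 of each population and TA replicate 3 in limma, where 6 genes had an unadjusted p under 0.05. Leaving out 1 library gave 1 to 4. The 10 calls between TA and D stayed between 7 and 13. With the replicate number as a block 17 genes were called between EVP and D (Pkm, Pfkp and Tpi1 joined) and 13 between TA and D. Replicates 1, 2, 4 and 5 correlated best with their own number and replicate 3 did not, and the numbers were not taken as pairs. Of the 33 ratios, 17 passed, and 16 to 18 when 1 library was left out. Ratios that passed were 0 with medians (18 at an unadjusted p under 0.05, smallest adjusted p 0.0873), 0 with the replicate block (0 unadjusted, smallest p 0.0625), 0 without replicate 1 (17 unadjusted, smallest adjusted p 0.0555), 0 without replicate 1 and TA replicate 3 (13 unadjusted, 0.0725) and 0 without replicate 3 (15 unadjusted, 0.0629). With 5 pairs the block cannot give a p under 0.0625. With the background subtracted 14 passed. Over all genes, EVP against D gave 7609 calls with array weights. EVP against TA gave 1900 in DESeq2, 407 with the background subtracted, 429 without EVP replicate 2, 472 without EVP replicate 3, 560 without TA replicate 3, 104 without replicate 1, 5 without replicate 1 and TA replicate 3, and 90 without replicate 3. TA against D gave 2117 with quantile normalization, 5054 with array weights and 1635 with the background subtracted. Quantile normalization moved the median log2 difference of all genes between EVP and D from 0.46 to -0.049. The cause of these changes was not tested. In EVP replicate 1, Eno2, Slc2a3, Pfkfb4, Ankrd37, Epas1 and Pfkfb3 lay below 2 times the background expected from exon length.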
